A study of Mus musculus with 12 samples.

Results

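The 9 genes described here are 7 genes for contractile and actin-binding proteins of smooth muscle, Acta2, Tagln, Cnn1, Myh11, Myl9, Tpm2 and Cald1, and 2 genes for their regulators, Srf and Myocd. They were taken by symbol from a table of 23414 genes, and all 9 had a value in each of the 4 RNA libraries. The libraries came from mouse cardiomyocytes made in vitro from the embryonic stem cell line CM7/1. One line carried doxycycline-inducible Hey1 and the other doxycycline-inducible Hey2. Each line gave 1 uninduced control library and 1 library from cells kept for 48 h with 1000 ng/ml doxycycline. No group has a second library, so no difference has a replicate check and no p-value is given. An effect of doxycycline and an effect of the induced gene cannot be told apart, since both induced libraries had both. The labels do not say whether each line is 1 clone, from which strain it comes or how many days the cells had differentiated. Values are RPKM, which scale the reads of a gene to its length and to library depth.

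Smooth muscle genes are controlled by serum response factor (Srf), a transcription factor that binds CArG boxes, DNA sites with a pair of C bases, an A and T core and a pair of G bases. Srf is weak on its own and takes its tissue specificity from cofactors, of which myocardin (Myocd) is made in heart and smooth muscle cells. Hey1 and Hey2 are transcriptional repressors that act downstream of Notch signalling and bind E-box sequences, and they act in the developing heart and vessels. Early heart muscle cells also make several smooth muscle proteins, among them Acta2 and Tagln, before they switch to cardiac isoforms.

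The promoters of 3 members with lower levels in Hey2-line cells are shown because they hold CArG boxes or near matches close to the gene's start. RefSeq promoter windows (GRCm38.p6, from 250 bases before to 50 bases after the start) were available for 6 members in 7 windows, with 2 for Cald1. Tagln, Myh11 and Myocd were not matched there. An exact CArG box stood in 2 of the 7 windows, those of Srf and Myl9, and in 1.63% of all 32851 promoters. A CArG box with 1 G or C in its core, a form that excludes the exact one, stood in 2 of the 7 windows, those of Myl9 and Acta2, and in 8.5% of all promoters. The E-box CACGTG, which reads the same on both strands, stood in none of the 7 windows and in 7.15% of all promoters. Both strands were searched. Each line gives the 175 bases before the start, 5′ to 3′ on the gene's strand, with the boxes in capitals. These are Srf at chr17:46556163-46556337 (minus strand), Myl9 at chr2:156775289-156775463 (plus strand) and Acta2 at chr19:34255374-34255548 (minus strand).
Srf: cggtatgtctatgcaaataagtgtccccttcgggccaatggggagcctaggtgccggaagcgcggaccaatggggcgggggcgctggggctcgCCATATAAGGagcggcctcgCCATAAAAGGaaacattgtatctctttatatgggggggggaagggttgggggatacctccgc
Myl9: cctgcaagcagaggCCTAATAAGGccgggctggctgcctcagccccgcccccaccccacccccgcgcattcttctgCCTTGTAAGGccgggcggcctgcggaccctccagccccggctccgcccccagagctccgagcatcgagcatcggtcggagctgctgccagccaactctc
Acta2: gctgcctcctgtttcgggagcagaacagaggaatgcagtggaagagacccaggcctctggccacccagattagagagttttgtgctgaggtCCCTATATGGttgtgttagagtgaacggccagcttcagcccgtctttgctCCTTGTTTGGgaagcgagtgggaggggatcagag

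Srf has a pair of exact boxes, at 82 to 73 and at 62 to 53 bases before its start. Myl9 has 1 exact box at 161 to 152 bases, CCTAATAAGG, and 1 box with a G in its core at 99 to 90 bases, CCTTGTAAGG. Acta2 has 2 boxes with a single G or C in the core, CCCTATATGG at 84 to 75 bases and CCTTGTTTGG at 34 to 25 bases. The windows of Cnn1, Tpm2 and Cald1 hold neither form. A match is a run of letters and no measured binding, and longer stretches or introns were not searched.

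**Figure D1:**
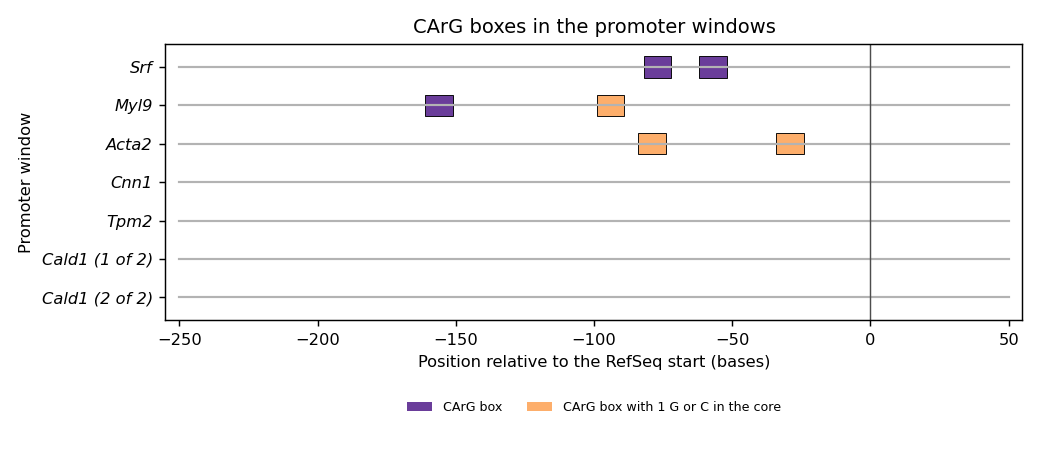
Positions of CArG boxes in 7 promoter windows of 6 genes. The horizontal axis gives bases relative to the RefSeq start, each line is 1 window, and each block is 1 box of 10 bases. Srf has both of its exact boxes within 82 bases of the start, while Cnn1, Tpm2 and both Cald1 windows have none.

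Listed genes took 3150735, 3141914, 2295636 and 4181359 reads, in the order Hey1 line uninduced, Hey1 line induced, Hey2 line uninduced and Hey2 line induced. Every set of 4 values follows that order. Whole reads were recovered from the steps of the RPKM, so each value carries a 95% interval of counting error only. Hey1 stood at 0.735, 8.59, 1.18 and 0.481 RPKM, highest in its own induced library. In Hey1-line cells Hey2 stood at 0.694 and 0.895 RPKM. Its cell was blank for uninduced Hey2-line cells and held 6.59 RPKM after induction. The lines differed in markers of cell identity. The 15 cardiomyocyte markers, all listed in every library, summed to 21974, 22687, 1268 and 1322 RPKM. The 10 pluripotency markers, of which 9 were listed in the Hey1 line and all in the Hey2 line, summed to 39.99, 30.98, 423 and 439 RPKM. In these bulk samples, fewer cells of a type and less RNA per cell cannot be told apart.

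Myl9, the regulatory light chain of smooth muscle and non-muscle myosin, was the most abundant of the 9 genes in the Hey1 line. It stood at 973, 1101, 49.0 and 51.3 RPKM, from 7796, 8945, 305 and 576 reads. Both Hey1-line libraries were far above both Hey2-line libraries. By level Myl9 took rank 15 among the genes listed in uninduced Hey1-line cells and rank 510 among those of uninduced Hey2-line cells. It made up 72.8%, 73.7%, 20.3% and 17.7% of the summed RPKM of the 9 genes.

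Acta2, smooth muscle alpha actin and the isoform most often used to mark smooth muscle and early heart muscle, stood at 217, 253, 45.6 and 49.5 RPKM. Of the members, Myl9 alone stood above it in the Hey1 line. In uninduced Hey2-line cells Tagln and Myl9 stood above it, and after induction Cald1 did too. Its 4131, 4884, 674 and 1322 reads put both Hey1-line intervals, 210 to 224 and 246 to 260 RPKM, above both Hey2-line intervals, 42.2 to 49.1 and 46.9 to 52.3 RPKM.

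Tagln, the actin-binding protein transgelin or SM22 alpha, did not share this split. It stood at 71.1, 60.7, 82.5 and 110.7 RPKM, from 835, 722, 752 and 1821 reads. The lowest value was that of induced Hey1-line cells and the highest that of induced Hey2-line cells. In both Hey2-line libraries Tagln was the most abundant of the 9 genes, at 34.3% and 38.2% of their sum. Its gene overlaps Pcsk7 in RefSeq, and whether reads were counted by strand is not given, so reads of the pair may be mixed. Pcsk7 itself stood at 2.94, 2.73, 2.19 and 1.95 RPKM, far below Tagln.

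Cald1, caldesmon, an actin-binding inhibitor of the myosin ATPase with a heavy form in smooth muscle and a light form in other cells, was higher in the Hey2 line. Its levels were 14.9, 13.9, 37.4 and 52.5 RPKM, from 445, 420, 868 and 2197 reads. The 2 Hey1-line intervals overlap, and the Hey2-line intervals, 35.0 to 40.0 and 50.3 to 54.7 RPKM, do not. The gene-level values do not separate the heavy from the light form.

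Cnn1, calponin 1, a smooth muscle protein that also damps the myosin ATPase, stood at 22.8, 21.2, 9.37 and 9.94 RPKM, from 335, 316, 107 and 205 reads. Tpm2, beta tropomyosin, which lies along actin filaments in smooth and skeletal muscle, stood at 6.36, 8.31, 5.61 and 5.64 RPKM, from 210, 278, 144 and 261 reads. Cnn1 followed Acta2 in being lower in the Hey2 line, while Tpm2 levels were close in 3 libraries and highest in induced Hey1-line cells.

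Myh11, the smooth muscle myosin heavy chain and the marker most restricted to mature smooth muscle, stood under 1 RPKM in every library. Its levels were 0.367, 0.462, 0.551 and 0.567 RPKM, from 18, 23, 21 and 39 reads, and 1.69%, 3.28%, 7.85% and 13.0% of the genes listed in each library lay below it. All 4 intervals overlap, and with a mean under 1 RPKM it is left out of the counts of genes compared below.

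Srf stood at 17.7, 21.4, 8.71 and 8.08 RPKM, from 535, 657, 205 and 343 reads. Myocd stood at 12.6, 14.4, 2.07 and 1.83 RPKM, from 478, 554, 61 and 97 reads. Both regulators were higher in each Hey1-line library than in either Hey2-line library, and their single-library intervals did not overlap between the lines.

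The order of levels was therefore not the same in the 2 lines. In uninduced Hey1-line cells it ran Myl9, Acta2, Tagln, Cnn1, Srf, Cald1, Myocd, Tpm2 and Myh11, where Srf and Cald1, and Cald1 and Myocd, had overlapping intervals. In uninduced Hey2-line cells it ran Tagln, Myl9, Acta2, Cald1, Cnn1, Srf, Tpm2, Myocd and Myh11, where Myl9 and Acta2, and Cnn1 and Srf, had overlapping intervals. Myocd thus stood above Tpm2 in Hey1-line cells and below it in Hey2-line cells. After induction the Hey1-line order exchanged Srf with Cnn1 and Myocd with Cald1. The intervals of Myocd and Cald1 overlapped before and after induction, and those of Srf and Cnn1 overlapped only after it. In the induced Hey2-line library Cald1 stood above Myl9 and Acta2, with an interval that overlaps those of both.

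**Figure D2:**
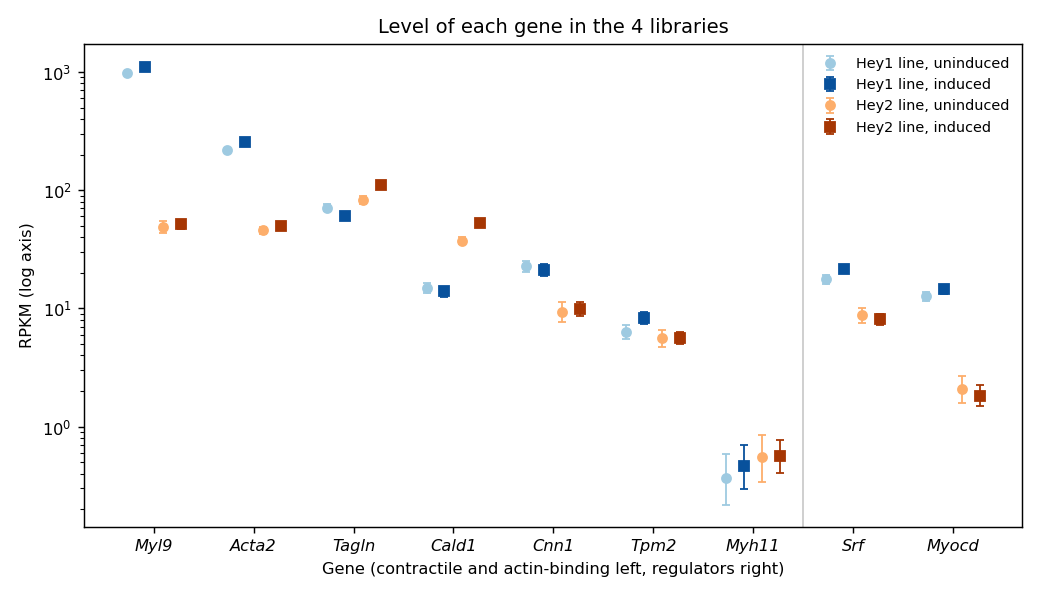
RPKM of the 9 genes on a log axis in the 4 libraries, with 95% Poisson intervals of counting error as bars, and 1 point for 1 library. Myl9 lies at 973 and 49.0 RPKM in the uninduced lines, while Tagln stays between 60.7 and 110.7 RPKM in all 4 libraries.

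The first comparison asked how the members differed after Hey1 was induced. A gene was counted as higher or lower after induction where the larger of the 2 values, RPKM + 1, exceeded the smaller by at least 25%. By this margin 1 of the 8 members compared was higher and none was lower. Among all 10991 genes compared, those with 4 values and a mean of at least 1 RPKM, 3.28% were higher and 12.6% lower. Scaling the libraries by median ratios turned these shares into 6.92% and 8.22%. The members' median difference in log2(RPKM + 1) was 0.18 and that of all genes −0.06. The 1 gene past the margin was Tpm2, at 1.31-fold (1.09 to 1.57). Its recovered gene model was long for a tropomyosin, 4462 bases. Its 4 read numbers have no common divisor above 1, so a shorter length would not give whole reads. The recovery looks for the shortest such length, so this is no separate check, and which sequence the model holds is not known. Srf joined Tpm2 past the margin when the libraries were scaled by median ratios or by upper quartiles. Tpm2 overlaps Car9 in RefSeq, which had no listed value in the Hey1 line.

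Smaller differences exceeded counting error for several members in the Hey1 line. Myl9 was 1.13-fold higher (1.10 to 1.17) and Acta2 was 1.17-fold higher (1.12 to 1.22). Srf was 1.21-fold higher (1.08 to 1.36) and Myocd 1.14-fold higher (1.01 to 1.30). Tagln went the other way and was 1.17-fold lower (1.06 to 1.30), but with the libraries scaled by median ratios its ratio of 0.909 had an interval that holds 1 (0.822 to 1.01). In all, 5 of 8 intervals lay above 1, against 4.88% of all genes, and 1 of 8 below 1, against 13.5% of all genes. Members with many reads pass this limit at small folds, so the count is not matched on depth with the other genes. Cnn1 and Cald1 had ratios of 0.931 each with intervals that hold 1, 0.796 to 1.09 for Cnn1 and 0.813 to 1.07 for Cald1. For Myh11 the interval of 0.651 to 2.48 left no direction detectable at this depth.

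The second comparison asked the same of Hey2. Here 2 of 8 members were higher by at least 25% and none was lower, where 5.62% of all genes were higher and 5.9% lower. The median difference was 0.07 for the members and −0.00 for all genes. Tagln was 1.34-fold higher (1.23 to 1.46), and 97.6% of the genes compared had a smaller difference. Cald1 was 1.4-fold higher (1.30 to 1.52), above 98.6% of them.

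These 2 were also the only members with an interval off 1 after Hey2 induction. Intervals above 1 were thus 2 of 8, against 8.04% of all genes, and intervals below 1 were 0 of 8, against 6.63%. Acta2 had a ratio of 1.09 (0.990 to 1.19), Myl9 1.05 (0.909 to 1.21), Cnn1 1.06 (0.836 to 1.35) and Tpm2 1.00 (0.816 to 1.24). Srf had a ratio of 0.927 (0.778 to 1.11) and Myocd one of 0.881 (0.633 to 1.23). For Myocd, with 61 and 97 reads, a fall to 0.633 or a rise to 1.23 of the uninduced level lies within counting error.

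**Figure D3:**
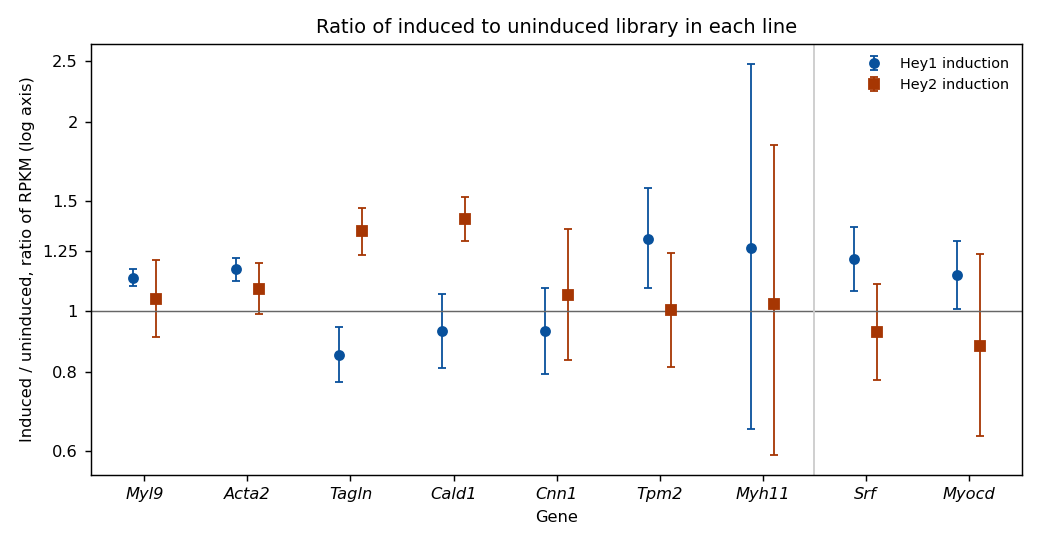
Ratio of the induced to the uninduced RPKM of each gene on a log axis, with exact 95% intervals of counting error as bars, circles for the Hey1 line and squares for the Hey2 line. Tagln lies at 0.853 for the Hey1 line and at 1.34 for the Hey2 line, on opposite sides of 1, and Myh11 has the widest bars.

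Set side by side, the 2 inductions differed most in Tagln and Cald1. The log2 ratio of Tagln was −0.23 after Hey1 and 0.42 after Hey2 induction, a difference of 0.65 (0.46 to 0.84, from the Poisson errors of the 4 read numbers). For Cald1 it was −0.10 and 0.49, a difference of 0.59 (0.37 to 0.81). Srf differed in the other direction, at 0.28 and −0.11, by −0.39 (−0.68 to −0.09). Intervals above 0 were found for 12.7% of all genes and intervals below 0 for 4.16%. The intervals of the other 6 members hold 0, but with the libraries scaled by median ratios those of Acta2 (−0.19, −0.33 to −0.04) and Tpm2 (−0.46, −0.85 to −0.07) lay below it. With 1 library for each condition, the difference between the lines was not tested across cultures.

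Of 8 fibroblast markers compared, 2 were lower by at least 25% after Hey1 induction and none higher, with a median difference of −0.22. After Hey2 induction 3 of 8 were higher and none lower, with a median of 0.27. The shares over all genes are those given above, 12.6% lower after Hey1 and 5.62% higher after Hey2 induction. Pluripotency markers gave 3 of 9 lower and none higher after Hey1 induction, with a median of −0.17. After Hey2 induction 2 of 9 were higher by this margin and none lower, with a median of 0.10. Their intervals after Hey2 induction went both ways, with 3 above 1 and 2 below 1. The 10 fibroblast markers summed to 47.7, 40.9, 68.2 and 86.1 RPKM, and Tcf21 was blank in every library. The collagen gene Col1a1 led the fibroblast list at 24.7, 24.0, 34.7 and 45.5 RPKM. Col1a2 stood at 3.39, 2.13, 9.87 and 12.2 RPKM. Pdgfra, a growth factor receptor, stood at 0.662, 0.594, 2.71 and 2.95 RPKM. The part of both marker lists in the Tagln and Cald1 results was not tested.

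The third comparison set the lines against each other without induction. Of 8 members compared, 4 were lower and 1 higher by at least 2-fold in the Hey2 line, on the log2(RPKM + 1) scale. Among all genes 13.1% were lower and 19.7% higher by this size, or 16.4% and 14.4% with the libraries scaled by median ratios. The median difference of the members was −1.07, beside 0.20 for all genes. Myl9 was 19.9-fold lower (17.7 to 22.3), and only 0.118% of the genes compared had a lower difference. Myocd was 6.09-fold lower (4.66 to 8.08), Acta2 4.76-fold lower (4.39 to 5.17) and Cnn1 2.43-fold lower (1.95 to 3.05).

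Srf lay just inside the size counted. Its RPKM was 2.03-fold lower (1.72 to 2.39), and on the log2(RPKM + 1) scale its difference was −0.94. With the libraries scaled by median ratios it was −1.16, past 2-fold. Cald1 was the 1 gene past 2-fold in the other direction, at 2.51-fold higher (2.24 to 2.82). Tagln was 1.16-fold higher (1.05 to 1.28), near the 0.20 median of all genes on the log2 scale, and its difference became −0.03 when each library was scaled by median ratios. Tpm2 had a ratio of 0.882 (0.709 to 1.10) and Myh11 one of 1.5 (0.762 to 2.99), both with intervals that hold 1. Under median ratio scaling the interval of Tpm2 lay below 1, at 0.599 to 0.927.

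With induction the same comparison gave 5 of 8 members lower and 1 higher by at least 2-fold, where 12.3% of all genes were lower and 22.8% higher (17.4% and 15.5% under median ratio scaling). The median was −1.16 for the members and 0.27 for all genes. Myl9 was 21.5-fold lower (19.7 to 23.4), Myocd 7.90-fold lower (6.36 to 9.91) and Acta2 5.11-fold lower (4.81 to 5.43). Srf was 2.65-fold lower (2.32 to 3.03) and Cnn1 2.13-fold lower (1.78 to 2.55). Tpm2 was 1.47-fold lower (1.24 to 1.75). Cald1 was 3.78-fold higher (3.41 to 4.21) and Tagln 1.82-fold higher (1.67 to 1.99). The uninduced and induced comparisons use different libraries of the same lines, and none of these values has a second culture behind it.

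**Figure D4:**
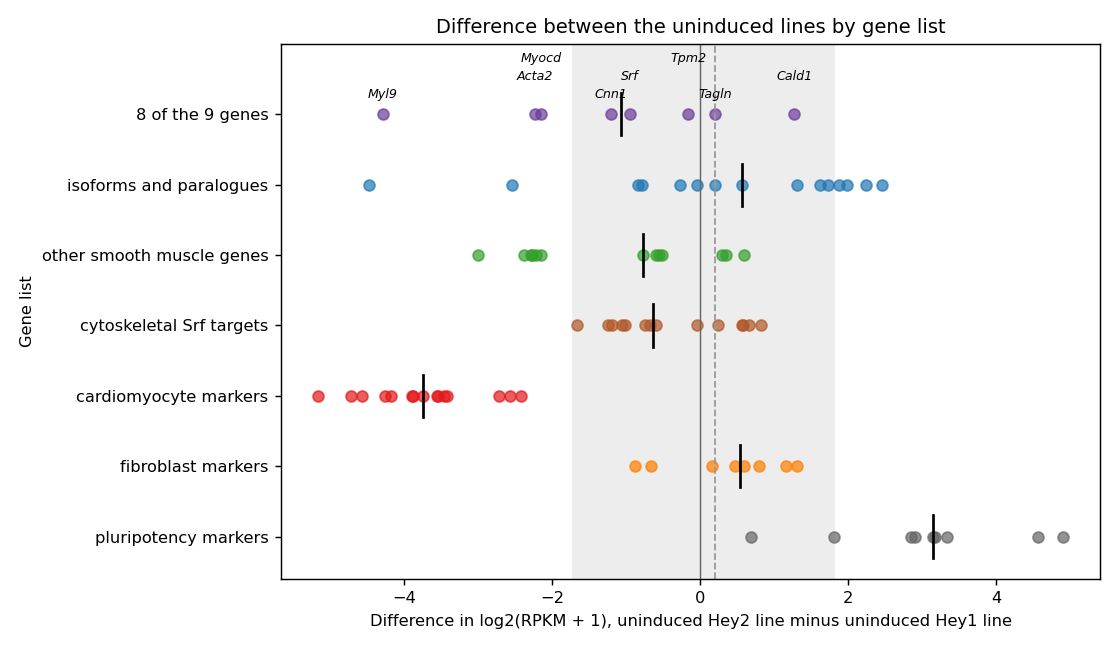
Difference in log2(RPKM + 1) between the uninduced libraries, Hey2 line minus Hey1 line, with 1 point for each gene compared and a black bar for each list's median. The grey band holds the middle 90% of all genes compared and the dashed line their median. The members spread from Myl9 at −4.28 to Cald1 at 1.27, with a median of −1.07, while cardiomyocyte markers have a median of −3.74.

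Markers of heart muscle differed in the same direction as the members that were lower in the Hey2 line. All 15 cardiomyocyte markers were lower by at least 2-fold in uninduced Hey2-line cells, with a median difference of −3.74. The largest differences were those of the atrial light chains, with Myl4 at 4940, 4861, 138 and 140 RPKM and Myl7 at 4191, 3680, 159 and 166 RPKM. Of 9 pluripotency markers compared 8 were higher by at least 2-fold, with a median of 3.15. Pou5f1 stood at 9.93, 8.87, 98.1 and 82.8 RPKM, and Lin28a was 61.2-fold higher (40.9 to 95.9). Tdgf1 stood at 1.33, 1.245, 54.2 and 56.97 RPKM. The part of these cell types in the members' differences was not tested.

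Markers of mature smooth muscle were mostly low in all 4 libraries. The 9 defining smooth muscle markers, of which Acta2, Tagln, Cnn1 and Myh11 are members, summed to 330, 356, 161 and 192 RPKM, most of it from Acta2 and Tagln. Smtn, smoothelin, stood at 12.8, 14.4, 16.02 and 15.4 RPKM. Unlike Acta2, it was not lower in Hey2-line cells by the RPKM as deposited, without rescaling of the libraries. Mylk, the kinase that phosphorylates Myl9, stood at 0.761, 0.871, 0.913 and 0.790 RPKM. Lmod1, an actin nucleator of smooth muscle, stood at 0.651, 0.643, 0.706 and 1.66 RPKM. It was higher after Hey2 induction, from 16 and 68 reads, with intervals of 0.403 to 1.15 and 1.29 to 2.11 RPKM that do not overlap. With a mean under 1 RPKM, Lmod1 is left out of the counts of genes compared. Itga8, an integrin subunit, stood at 0.865, 0.807, 0.752 and 0.533 RPKM. Actg2, the enteric smooth muscle actin, stood at 3.29, 3.45, 4.497 and 2.86 RPKM. It was lower by at least 25% after Hey2 induction, where Tagln was higher, but from 34 and 39 reads its ratio of 0.636 had an interval that holds 1 (0.391 to 1.04). None of the 9 was blank in any library.

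The 9 pericyte markers summed to 39.4, 37.8, 18.5 and 23.2 RPKM, and Abcc9 and Higd1b were blank throughout. Mcam, an adhesion molecule, gave 36.5, 35.7, 8.54 and 8.3 RPKM of it. The 10 endothelial markers summed to 3.84, 2.92, 16.5 and 18.5 RPKM. Pecam1 stood at 2.004, 2.06, 3.37 and 3.88 RPKM and the VEGF receptor gene Flt1 at 0.301, 0.255, 3.6 and 3.76 RPKM. Kdr, another VEGF receptor gene, stood at 0.397, 0.612, 1.501 and 0.956 RPKM. Among 12 skeletal muscle markers, summing to 53.4, 49.5, 18.9 and 29.0 RPKM, the master regulators Myod1, Myog, Myf5 and Myf6 were blank throughout. Ckm, a creatine kinase of heart and skeletal muscle, led that list in the Hey1 line at 32.3 and 30.6 RPKM. The perinatal myosin gene Myh8 stood at 4.51, 3.88, 0.283 and 0.361 RPKM.

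Most members belong to families in which several genes make the same kind of protein, and their shares differed between the lines. Acta2 gave 4.04%, 4.68%, 6.82% and 6.99% of the summed RPKM of 6 actin genes. Cardiac actin, Actc1, made up 93.8%, 93.2%, 33.7% and 30.6%, and the cytoplasmic actin Actb reached 35.9% and 37.7% in Hey2-line cells. Acta2 was thus lower in the Hey2 line in level but not in its share of actin.

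Transgelin and calponin shares differed the other way. Tagln made up 81.2%, 79.6%, 45.7% and 52.9% of 3 transgelins, as the broadly expressed Tagln2 stood at 16.5, 15.5, 95.6 and 96.4 RPKM. Cnn1 made up 24.2%, 23.5%, 8.37% and 8.70% of 3 calponins, with the non-muscle form Cnn3 at 57.6% and 53.9% in the Hey2 line. Myl9 made up 81.4%, 81.6%, 24.5% and 24.6% of 4 smooth and non-muscle light chains (Myl9, Myl6, Myl12a and Myl12b). Cardiac light chains were left out of this sum, whereas cardiac Actc1 is part of the actin sum. Myl2 stood at 2818, 2896, 190 and 182 RPKM and Myl7 at 4191, 3680, 159 and 166 RPKM, each above Myl9 in every library. The share of Myl9 therefore depends on this choice and is not comparable with that of Acta2.

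Tpm2 and Myh11 were minor members of their families everywhere. Tpm2 gave 0.516%, 0.656%, 1.68% and 1.53% of 4 tropomyosins, of which Tpm1 was the main one in every library, at 96.8% in uninduced Hey1-line cells and 61.5% in uninduced Hey2-line cells. Myh11 gave 0.827%, 1.06%, 0.699% and 0.540% of the smooth and non-muscle heavy chains. The non-muscle heavy chain Myh10 led in Hey1-line cells and Myh9 in Hey2-line cells. Reads shared by near-identical coding stretches of these paralogues may be split between them, in a way that no source used here states.

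**Figure D5:**
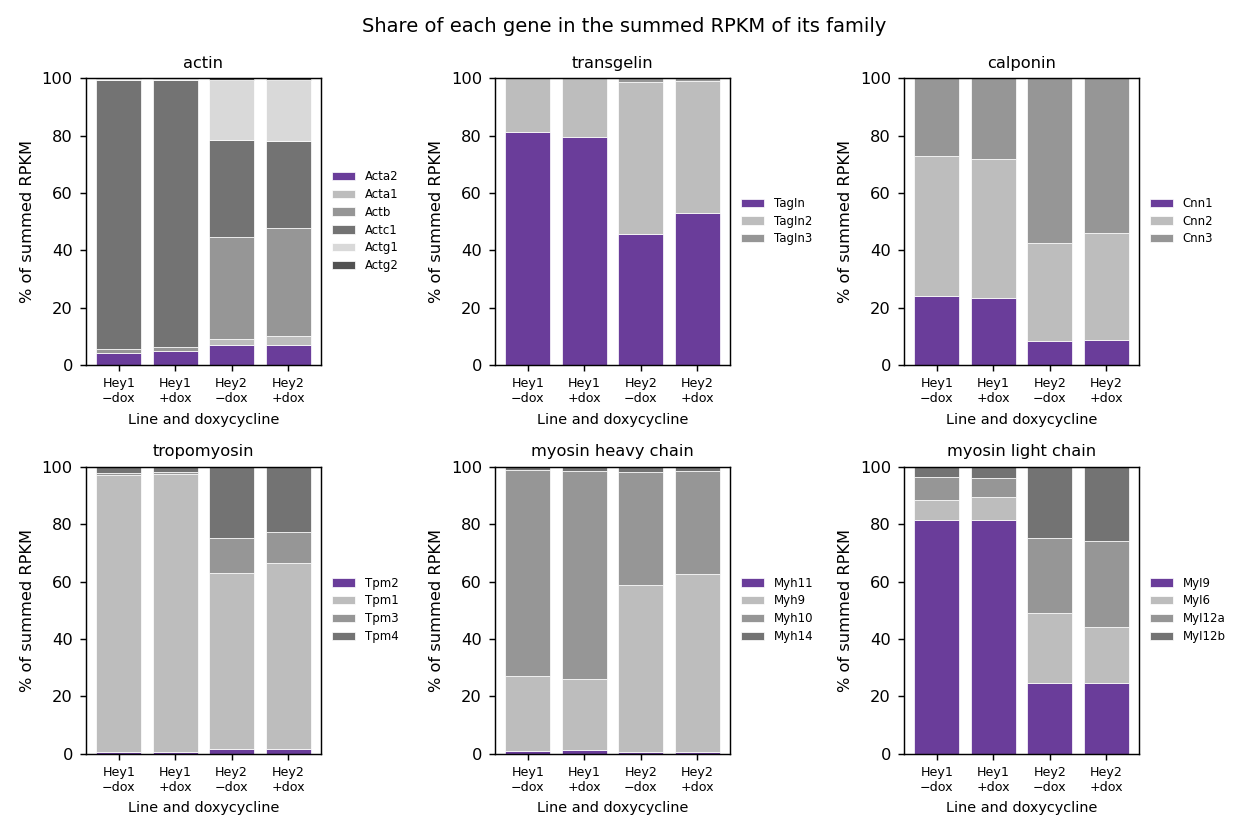
Share of each gene in the summed RPKM of its family, in percent, for 6 families in the 4 libraries (−dox, uninduced, +dox, induced), with the member in purple and its relatives in grey. Myl9 makes up 81.4% and 24.5% of the smooth and non-muscle light chains in the uninduced lines, a sum without the cardiac light chains. Acta2 stays between 4.04% and 6.99% of the actins, a sum that includes cardiac Actc1.

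Across the 17 paralogues of the members, of which 15 were compared, 7 were higher and 2 lower by at least 2-fold in uninduced Hey2-line cells, with a median difference of 0.57. The 2 lower genes were the cardiac forms Actc1, 22.4-fold lower (21.3 to 23.5), and Tpm1, 5.81-fold lower (5.62 to 6.01). After Hey1 induction 1 was lower by at least 25% and none higher, and after Hey2 induction 2 were higher and none lower. The skeletal actin Acta1 was among them in both lines, at 9.20, 6.11, 14.2 and 21.6 RPKM. Its ratios of 0.664 (0.485 to 0.903) and 1.52 (1.24 to 1.88) lay on the same sides of 1 as those of Tagln. Over all genes compared, 19.7% were higher and 13.1% lower by at least 2-fold in uninduced Hey2-line cells. By at least 25%, 3.28% were higher and 12.6% lower after Hey1 induction. After Hey2 induction 5.62% were higher and 5.9% lower. The induction counts of the lists below stand beside the same shares.

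Of 20 other smooth muscle genes 13 were compared, with a median of −0.76 between the uninduced lines. In uninduced Hey2-line cells 6 were lower by at least 2-fold and none higher, beside 13.1% and 19.7% of all genes. Des, the intermediate filament protein desmin of all muscle types, stood at 360, 394, 44.1 and 44.9 RPKM. Tgfb1i1, the focal adhesion coactivator Hic-5, stood at 13.2, 11.7, 1.72 and 1.94 RPKM. None of these 13 passed the 25% margin after Hey1 induction, and after Hey2 induction 1 was lower and none higher. The 13 leave out Lmod1, whose mean was under 1 RPKM and which was higher after Hey2 induction, at 0.706 and 1.66 RPKM. Desmin is also a heart muscle gene, so this list is not specific to smooth muscle.

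Srf cofactors and partners gave 13 genes compared of 14, with a median of −0.60 between the uninduced lines. In uninduced Hey2-line cells 6 were lower and 1 higher by at least 2-fold, beside 13.1% and 19.7% of all genes. The cardiac homeobox factor Nkx2-5 stood at 52.6, 52.8, 2.97 and 3.60 RPKM. The LIM-domain genes Fhl2 and Fhl1 were 7.49-fold (6.24 to 9.07) and 8.92-fold (7.63 to 10.5) lower. After Hey1 induction none passed the 25% margin, and 2 were higher and none lower after Hey2 induction. The myocardin-related coactivators Mkl1 and Mkl2, named here after their values were seen, stood at 2.65, 3.20, 2.38 and 2.74 RPKM and at 3.5, 4.33, 1.97 and 2.49 RPKM. Myocd was above both in the Hey1 line, and in uninduced Hey2-line cells its interval overlapped those of both. In induced Hey2-line cells Myocd, at 1.83 RPKM, stood below both. Its interval there, 1.48 to 2.23 RPKM, overlapped that of Mkl2, 2.18 to 2.83 RPKM, but not that of Mkl1, 2.35 to 3.18 RPKM.

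Cytoskeletal Srf targets that are not specific to muscle gave 14 genes, with a median of −0.64 between the uninduced lines. In uninduced Hey2-line cells 5 were lower and none higher by at least 2-fold, beside 13.1% and 19.7% of all genes. The matricellular gene Ctgf stood at 217, 237, 68.3 and 68.4 RPKM, and the talin gene Tln1 at 23.6, 23.9, 9.45 and 12.3 RPKM. After Hey1 induction 1 was lower and none higher by at least 25%. After Hey2 induction 2 were higher and 1 lower.

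Of 12 repressors of smooth muscle genes compared, 1 was higher and none lower by at least 2-fold in uninduced Hey2-line cells, with a median of 0.33. Over all genes the shares were 19.7% and 13.1%. Between the induced lines 4 were higher and 1 lower, with a median of 0.49, beside 22.8% and 12.3% of all genes. The 1 gene past 2-fold without induction, the zinc finger factor Yy1, stood at 9.25, 10.04, 22.6 and 24.8 RPKM. Id2, which keeps basic helix-loop-helix factors from binding DNA, stood at 18.4, 23.9, 8.89 and 5.91 RPKM. It was 1.30-fold higher (1.06 to 1.59) after Hey1 induction and 1.5-fold lower (1.06 to 2.12) after Hey2 induction. In this list 1 was higher and 1 lower by at least 25% after Hey1 induction, and 1 higher and 2 lower after Hey2 induction.

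Among signals that act on smooth muscle genes, 21 of 24 were compared, with a median of 0.26 between the uninduced lines. In uninduced Hey2-line cells 3 were higher and 3 lower by at least 2-fold, beside 19.7% and 13.1% of all genes. The endothelin receptor gene Ednra stood at 15.0, 17.2, 2.15 and 1.69 RPKM, in the same order between lines as Acta2. Notch3, the Notch receptor of vascular smooth muscle and pericytes, stood at 1.21, 1.01, 7.79 and 11.01 RPKM, and was 1.41-fold higher (1.248 to 1.60) after Hey2 induction. Rhoa, the GTPase that drives actin assembly, stood at 38.5, 28.3, 51.5 and 49.3 RPKM, and was 1.36-fold lower (1.2 to 1.54) after Hey1 induction. After Hey1 induction 1 of the 21 was higher and 3 lower by at least 25%, and after Hey2 induction 3 were higher and none lower.

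The profile of Acta2 over the 4 libraries was also set against those of 6511 genes averaging 5 RPKM or more, by the distance between log2(RPKM + 1) values centred for each gene. The nearest were Slc25a23, a mitochondrial carrier, at a distance of 0.018, Smad6, an inhibitor of BMP signalling, at 0.043, then Scand1, Mtap1a and BC057893. Slc25a23 stood at 33.2, 39.0, 6.21 and 6.91 RPKM and Smad6 at 12.1, 14.8, 1.81 and 2.01 RPKM. Of the members, Myocd lay closest to Acta2, at 0.172, and Cald1 farthest, at 3.85. The mean profile of the 7 contractile genes lay nearest to Gpr124, Ppp1r9b, 4933424G05Rik, Nenf and Pctk1, at distances from 0.049 to 0.060. The added 1 RPKM shrinks the differences of low genes and so affects nearness. By ratio of RPKM, Myocd was 6.09-fold (uninduced) and 7.90-fold (induced) lower in the Hey2 line, and Acta2 4.76-fold and 5.11-fold. With 4 libraries that share 2 lines, these distances are a description only.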

How the data were processed

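RNA of 4 libraries was analysed, and the 8 chromatin immunoprecipitation samples of the series were left out. The authors deposited RPKM values in 1 table of 23427 rows, per the file headers. Per the submitters' processing notes the build is mm9, and Bowtie 1.0, DESeq and MACS 1.4.1 are named without a role. No source used here names the annotation, the read counter or the use of strand.

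Entries with the same 4 values as an earlier one (13) were removed. Whole reads were recovered from the steps of the RPKM for 15352 of 15358 listed genes (99.96%), with divisors of 7400000, 7500000, 5750000 and 10375000 reads. The length of 634 genes was multiplied to keep read numbers at or over the lowest listed, 10 reads for Hey1-line and 5 for Hey2-line libraries. Blank cells were taken as below that floor. The recovery was tested on simulated data.

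Differences are of log2(RPKM + 1), a pseudocount that shrinks the differences of low genes. Folds are ratios of RPKM with exact conditional binomial 95% intervals, and single values have exact Poisson intervals. PCR copies are not independent, so intervals cover counting error only. Genes were counted on that scale at 25% of the smaller value for inductions and at 2-fold between lines. Whole reads allow no test across cultures with 1 library in each group, so no count model was run.

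Genes were matched by symbol, 8 list genes by Entrez identifier through RefSeq, and Hop was not matched. Overlapping genes are named from RefSeq of GRCm38.p6. Also uncertain through such overlaps are Cald1, Srf and Myocd, which overlap non-coding or predicted genes there. The members and lists were chosen with earlier results of these data known. From each list the text names the gene with the highest mean and the 2 genes with the largest difference between the uninduced lines, along with all 9 members, isoforms of members and defining markers. Python 3.11.15, NumPy 2.4.6, pandas 2.3.3, SciPy 1.17.1 and Matplotlib 3.10.9 were used. Median ratio scaling divided each library by the median of its genes' ratios to their geometric means, and upper quartile scaling by the upper quartile of genes compared. Alternatives changed the pseudocount, the scaling, the filter and the reading of blanks.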

Additional observations from a re-analysis of the deposited data

Results flagged for a closer look

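Tagln, the transgelin gene, was lower after Hey1 induction and higher after Hey2 induction, each by more than counting error. Its log2 ratio after Hey2 induction exceeded that after Hey1 induction by 0.65 (0.46 to 0.84). The difference was not tested across cultures, since each condition has 1 library. With the libraries scaled by median ratios the difference was 0.57 (0.38 to 0.76), and the ratio after Hey1 induction, 0.909 (0.822 to 1.01), lay within counting error.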

How the results depend on the processing

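Of 108 summary values under alternative settings, 100 stayed within the limits set (1.5 times for a count, counting error for a median), 8 moved and none changed direction. Higher members after Hey1 induction numbered 2 in place of 1 under median ratio and under upper quartile scaling. The members' median between the uninduced lines was −1.29 under median ratio scaling, −1.22 under upper quartile scaling and −0.94 with no minimum mean, in place of −1.07. Between the induced lines it was −1.47, −1.37 and −1.02, in place of −1.16. Without a minimum mean Myh11 joins the members, and for the scalings the cause was not tested. Among 144 values of single members, 24 moved by more than counting error. They include Acta2 and Myl9 after Hey1 induction under both scalings, and the rest lay between the lines. The sign changed for 2 values under median ratio scaling, Tagln between the uninduced lines (0.21 to −0.03) and Myh11 between the induced lines (0.10 to −0.01). That scaling moved the all-gene median between the lines from 0.20 to 0.01 and from 0.27 to 0.00, and the split of higher and lower genes from 2167 and 1439 to 1579 and 1805 (uninduced) and from 2509 and 1357 to 1708 and 1911 (induced). For Hey1 induction the split went from 361 and 1384 to 761 and 904 under median ratio scaling and to 611 and 1038 under upper quartile scaling. Over all settings, all-gene counts ran from 179 to 761 higher and 860 to 2089 lower after Hey1 induction, and from 300 to 1016 higher and 326 to 995 lower after Hey2 induction. Leaving out a replicate is not possible with 1 library in each group. No paired analysis was possible because each group has a single library and no result comes from a test across samples. Depth limits Myh11 and, in the Hey2 line, Myocd most.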
